A study of Mus musculus with 6 samples.

Results

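Transcript levels of *Serpine2* and of genes of the plasminogen activator system were analysed in whole sciatic nerve of mice lacking Rnf40 in Schwann cells and of control mice. The 7 genes (*Serpine2*, *Serpinf1*, *Serpini1*, *Plat*, *Plau*, *Plaur* and *Prss23*) of 24015 gene symbols in the count tables were chosen from these data because *Serpine2* was much higher in the mutant libraries, so their differences between genotypes are given as a description without a test. RNA-Seq libraries came from 3 control (ctrl) and 3 *Rnf40ΔSC* (cko) samples, all at postnatal day 14, each made from a pool of 3 nerves. Both groups carried floxed *Rnf40* alleles (Rnf40 fl/fl), and only the *Rnf40ΔSC* mice had the *Dhh::Cre* transgene as well, which drives deletion in the Schwann cell lineage and not in cells such as those of blood vessels or the immune system, all of which the nerve contains. The strain of both groups was labelled as a mixed 129SvJ/C57Bl/6J background, whereas the methods give C3H × C57Bl/6J. The RNA is that of the whole nerve, so no level can be assigned to a cell type.

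Plasminogen is a circulating zymogen that is cut to the active protease plasmin by tissue-type plasminogen activator (encoded by *Plat*) or urokinase (encoded by *Plau*), the latter held at the cell surface by the urokinase receptor (encoded by *Plaur*). Plasmin degrades fibrin and extracellular matrix. Serine protease inhibitors of the serpin class trap these proteases in covalent complexes, and the complexes are taken up by endocytic receptors of the LDL receptor family. In peripheral nerve the system is known for the removal of fibrin and for matrix turnover after injury, and the product of *Serpine2*, protease nexin-1 or glia-derived nexin, is a secreted inhibitor that acts on thrombin, urokinase and tissue-type plasminogen activator.

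Library totals were 1317167, 1992622 and 2468765 counts in control and 2184268, 1459387 and 2186710 counts in *Rnf40ΔSC* replicates 1 to 3. Levels are given as CPM (counts scaled to a library size of 1e6) after TMM scaling, in which 1 read was worth between 0.414 and 0.823 CPM. At this depth a gene without any read may still have had up to 3 reads in a library, or between 1.24 and 2.47 CPM. Such limits cover counting error only. Of the 24015 symbols 17139 had a read in some library, and 11371 had enough reads to be tested.

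*Rnf40*, the ubiquitin ligase gene targeted in the mutant, had 67.5, 65.5 and 73.6 CPM in control and 46.8, 46.9 and 48.8 CPM in *Rnf40ΔSC* nerves. All 3 *Rnf40ΔSC* libraries were below all control libraries, as their labels require, with a log2 fold change of -0.54 (SE 0.14, edgeR adjusted p = 0.00242). Scaling to total counts gave -0.27 (adjusted p = 0.12). The counts cover the whole gene, so reads from outside the deleted exons are included. In such bulk RNA, fewer cells of a type and less RNA per cell cannot be told apart, here and for every gene below.

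A few libraries stood apart in cell type markers. The summed level of 7 skeletal muscle markers, most abundant of them *Myh4*, was 3790, 2760 and 2086 CPM in control replicates 1 to 3 but 79.4, 184 and 2452 CPM in *Rnf40ΔSC* replicates 1 to 3, so that *Rnf40ΔSC* replicate 3 resembled the controls and replicates 1 and 2 were nearly free of muscle RNA. The 6 adipocyte markers, led by *Fabp4*, summed to 1174, 868 and 1488 CPM in control and 926, 848 and 674 CPM in *Rnf40ΔSC* libraries, with the highest sum in control replicate 3. Values without these libraries are given where a result rests on them.

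Schwann cell markers were abundant in all libraries, as the tissue label requires. The 6 markers, led by *Pmp22*, summed to 47530, 53202 and 50701 CPM in control and to 13696, 13216 and 12032 CPM in *Rnf40ΔSC* nerves, a ratio of 0.257. Of these, 5 were lower and 1 (*Egr2*) was higher at an edgeR adjusted p of 0.05, beside 16.2% and 15.4% of all tested genes, the latter gene not without control replicate 3 (adjusted p = 0.0873). Most of the difference in the sum came from *Pmp22*, whose log2 fold change was -2.13, whereas *Sox10*, a marker of the Schwann cell lineage, had -0.79. The other 5 markers without *Pmp22* summed to means of 3479 and 2279 CPM, a ratio of 0.655.

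Markers of the other nerve cells were also lower in sum. Their counts are at an edgeR adjusted p of 0.05 alone, at which 16.2% of all tested genes were lower. Those of fibroblasts (7 genes, led by *Col3a1*) summed to 39912, 39111 and 42310 CPM in control and 31003, 29881 and 29380 CPM in *Rnf40ΔSC* libraries, with 6 of 7 tested genes lower. Perineurial markers (5 genes, led by *Cldn1*) summed to 458, 538 and 506 against 431, 354 and 376 CPM, and 2 of 4 tested genes were lower. Endothelial markers (6 genes, led by *Cdh5*) summed to 667, 607 and 692 against 429, 441 and 521 CPM, and 4 of 6 tested genes were lower. These sums were between 0.707 and 0.772 of control. For pericytes and smooth muscle (6 genes, led by *Pdgfrb*) the sums were 663, 584 and 639 against 377, 404 and 450 CPM, with 4 of 6 tested genes lower. Macrophage markers (7 genes, led by *Csf1r*) summed to 412, 354 and 388 against 263, 259 and 275 CPM, with 5 of 7 tested genes lower. Mast cell markers (5 genes, led by *Cpa3*) summed to 66.7, 78.0 and 95.1 against 56.7, 44.4 and 44.3 CPM, with 3 of 5 tested genes lower. No marker of these 6 lists was at 0 in all libraries.

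Markers of cells that carry *Serpine2* or clotting factors into tissue with blood, and of neurons, were looked at as well. Platelet markers (5 genes, led by *Pf4*) summed to 58.5, 40.7 and 55.8 CPM in control and 61.4, 54.4 and 40.6 CPM in *Rnf40ΔSC* libraries, a ratio of 1.01, and *Ppbp* had no read. Most of this sum was *Pf4*. The other 4 genes summed to means of 5.70 and 8.03 CPM, a ratio of 1.41. Plasma proteins of hepatocytes (5 genes, led by *Alb*) reached at most 2.50 CPM in sum in any library, and *Fgb* had no read. Neuronal markers (6 genes, led by *Snap25*) summed to 11.5, 17.0 and 14.3 against 24.5, 28.1 and 19.0 CPM, a ratio of 1.68. Of these 6 genes 2 were tested, and *Snap25*, which gave most of the difference in the sum, passed as higher and *Nefm* did not pass (0.34, adjusted p = 0.599). The mean of *Nefl* was 3.51 CPM in control and 2.45 CPM in *Rnf40ΔSC* libraries, with overlap. The part of any of these cell types in the levels described here was not tested.

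*Serpine2* lies on mouse chromosome 1 (chr1:79790772-79855271, mm9, minus strand) and no other annotated exon overlaps its exons. It was measured at 273, 293 and 252 CPM in control and at 1534, 1854 and 1318 CPM in *Rnf40ΔSC* replicates 1 to 3. These levels rest on 331, 519 and 564 reads in control and 3574, 2967 and 3184 reads in *Rnf40ΔSC* nerves. The lowest *Rnf40ΔSC* library was thus far above the highest control library, and *Rnf40ΔSC* replicate 2 was the highest of all. Mean levels were 273 ± 20.8 CPM (SD, n = 3) and 1569 ± 270 CPM (SD, n = 3), a 5.76-fold difference, and the fitted log2 fold change was 2.53 (SE 0.11). Without *Rnf40ΔSC* replicate 3, the only mutant library with as much muscle RNA as the controls, it was 2.65. In that fit muscle RNA differed along with genotype. By itself *Rnf40ΔSC* replicate 3 had 1318 CPM of *Serpine2*, against 252 to 293 CPM in the controls. Without control replicate 3 the log2 fold change was 2.47. Over all tested genes the median log2 fold change was -0.00255 and the 5th and 95th percentiles were -0.92 and 0.88. A log2 fold change at least as high as that of *Serpine2* was found for 91 genes, itself included, of which 29 had a mean of at least 20 normalised counts. The direction of *Serpine2* was opposite to that of the Schwann cell marker sum. It was also opposite to those of the fibroblast, perineurial, endothelial, pericyte, macrophage and mast cell marker sums. The neuronal marker sum went the same way as *Serpine2* (ratio 1.68, or 1.32 without *Snap25*), at means of only 14.3 and 23.9 CPM. Within the Schwann cell list 5 markers were lower and *Egr2* was higher. The part of any cell type in the level of *Serpine2* was not tested.

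**Figure D1:**
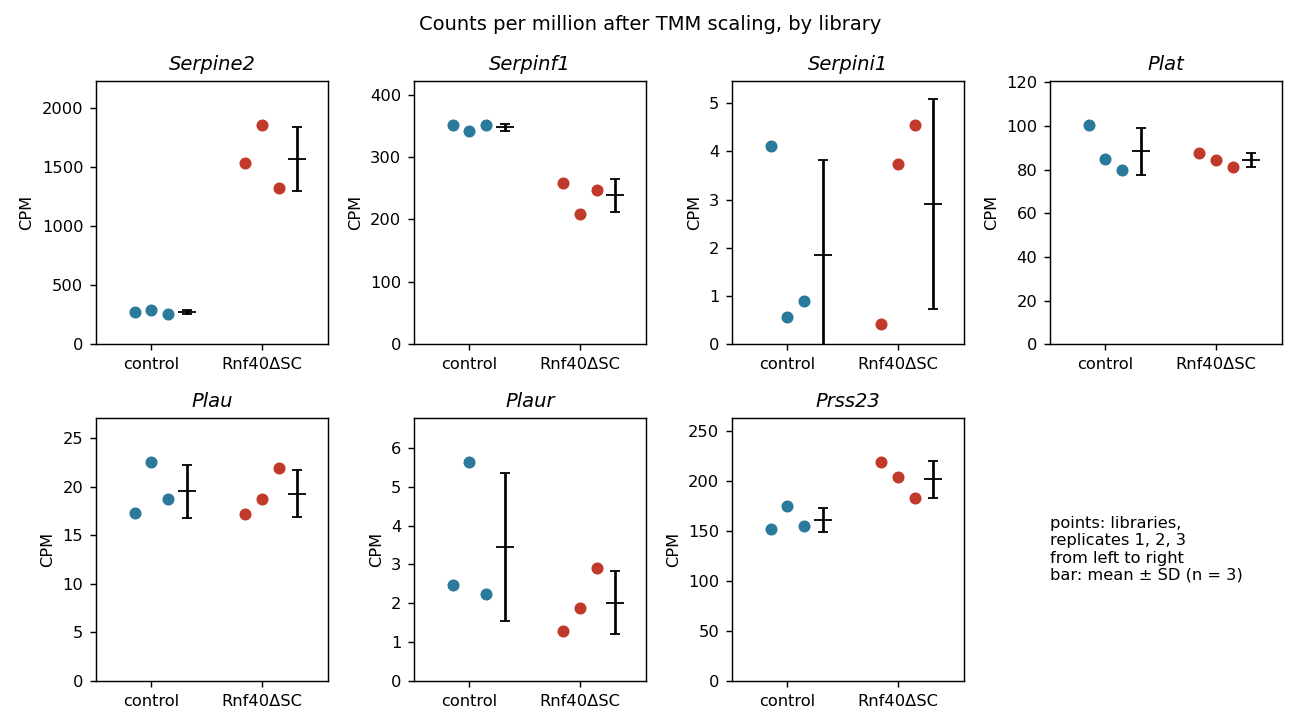
Level of each of the 7 genes in CPM after TMM scaling (vertical axes, linear and starting at 0) in the 3 control libraries (blue) and 3 *Rnf40ΔSC* libraries (red), with replicates 1 to 3 from left to right and the mean with its SD in black. *Serpine2* and *Prss23* were higher and *Serpinf1* was lower in all *Rnf40ΔSC* libraries, whereas the groups overlapped for *Plat*, *Plau*, *Plaur* and *Serpini1*.

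Within the transcriptome *Serpine2* was an abundant transcript in both genotypes and ranked higher in *Rnf40ΔSC* nerves. It took 0.0247 ± 0.00165% of all counts in control and 0.171 ± 0.0295% in *Rnf40ΔSC* nerves (SD, n = 3). By level per kilobase of exon it ranked 517, 475 and 574 among 10605 genes in control replicates 1 to 3 and 37, 31 and 41 in *Rnf40ΔSC* replicates 1 to 3. Of all reads assigned to serpin genes, 11.2 ± 0.710% belonged to *Serpine2* in control and 50.8 ± 3.92% in *Rnf40ΔSC* nerves (SD, n = 3).

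*Serpinf1*, on chromosome 11 (chr11:75223271-75236203, mm9, minus strand), encodes pigment epithelium-derived factor, a secreted serpin without protease inhibitor activity that is known for neurotrophic and antiangiogenic effects. Its level was 352, 341 and 351 CPM in control and 258, 209 and 247 CPM in *Rnf40ΔSC* replicates 1 to 3. The control libraries were nearly identical and all *Rnf40ΔSC* libraries were below them, with replicate 2 lowest. The means were 348 ± 5.74 and 238 ± 25.8 CPM (SD, n = 3), and the log2 fold change was -0.54 (SE 0.10). With scaling to total counts it was -0.27. The marker sum of fibroblasts moved in the same direction with a ratio of 0.744, against 0.685 for *Serpinf1*. The part of these cells in it was not tested.

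The start regions of *Serpine2* and *Serpinf1* are shown because these had the largest fitted differences among the 7 genes with TMM scaling, in opposite directions (with total-count scaling *Prss23* came second). They were taken from the RefSeq promoter table (build GRCm38.p6), which spans 250 bases before to 50 bases after a start site and held 5 of the 7 genes (not *Plat* and *Plau*). The sequence of *Serpine2* is chr1:79858616-79858915 and that of *Serpinf1* chr11:75422574-75422873 in GRCm38.p6, both on the minus strand. Each matched the mm9 genome exactly once, at chr1:79855191-79855490 and chr11:75236076-75236375. Capitals mark matches to any of 5 motifs that were searched on both strands.
Serpine2: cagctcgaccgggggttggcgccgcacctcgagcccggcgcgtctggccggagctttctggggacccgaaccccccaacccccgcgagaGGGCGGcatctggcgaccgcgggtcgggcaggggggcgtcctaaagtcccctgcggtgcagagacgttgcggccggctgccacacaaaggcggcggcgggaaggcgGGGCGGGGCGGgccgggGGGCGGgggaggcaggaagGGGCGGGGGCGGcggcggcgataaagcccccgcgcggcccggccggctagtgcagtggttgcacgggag
Serpinf1: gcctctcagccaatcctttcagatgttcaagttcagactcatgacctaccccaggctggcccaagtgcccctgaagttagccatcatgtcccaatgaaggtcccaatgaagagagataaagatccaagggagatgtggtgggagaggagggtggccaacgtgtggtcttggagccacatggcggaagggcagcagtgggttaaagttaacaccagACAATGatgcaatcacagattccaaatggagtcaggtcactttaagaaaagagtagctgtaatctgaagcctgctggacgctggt

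The 2 windows differed in composition. That of *Serpine2* had 77.7% G and C with 41 CpG dinucleotides, and that of *Serpinf1* had 50.7% with 3 CpG dinucleotides. The motif of SP1 factors was written as GGGCGG, and the *Serpine2* window held 6 matches to it, starting at positions -161, -55, -50, -38, -19 and -13 from the start site. The motif of EGR factors, written as GCGNGGGCG, had 1 match there, at -17, which overlaps SP1 matches. In the *Serpinf1* window the motif of SOX factors, written as ACAATG, had 1 match at -35. Neither window held the AP-1 motif, written as TGANTCA, or the TATA box, written as TATAAA. Among all 32851 promoters of the same length in the file, an SP1 match was found in 35.7%, an EGR match in 5.55%, a SOX match in 12.6%, an AP-1 match in 7.81% and a TATA box in 13.6%. Such matches are letters in a window, and binding was not measured here.

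*Serpini1*, on chromosome 3 (chr3:75361469-75447417, mm9, plus strand), encodes neuroserpin, an inhibitor of tissue-type plasminogen activator made mainly by neurons. It had 5, 1 and 2 reads in control and 1, 6 and 11 reads in *Rnf40ΔSC* replicates 1 to 3. The groups overlapped, and the gene had too few reads for the fit. The ratio of summed reads, adjusted for library size, was 1.85 with a 95% interval from 0.766 to 4.92, which covers counting error only, so that a difference was not detectable at this depth.

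*Plat*, on chromosome 8 (chr8:23868216-23893319, mm9, plus strand), had 100, 84.8 and 79.9 CPM in control and 87.6, 84.4 and 81.1 CPM in *Rnf40ΔSC* nerves. All *Rnf40ΔSC* libraries lay within the range of the controls. The log2 fold change was -0.05 (SE 0.12). *Plau*, on chromosome 14 (chr14:21655884-21662610, mm9, plus strand), had 17.3, 22.6 and 18.7 CPM in control and 17.2, 18.7 and 21.9 CPM in *Rnf40ΔSC* nerves. Here, too, the groups overlapped nearly completely, with a log2 fold change of -0.02 (SE 0.22) that rests on 21 to 53 reads per library. Scaling to total counts turned these values to 0.22 for *Plat* and 0.25 for *Plau*, close to the median of 0.267 that all tested genes had with that scaling.

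*Prss23*, on chromosome 7 (chr7:96656295-96666096, mm9, minus strand), encodes a secreted serine protease. It had 152, 175 and 155 CPM in control and 219, 204 and 182 CPM in *Rnf40ΔSC* replicates 1 to 3. All *Rnf40ΔSC* libraries were above the controls, but the gap between control replicate 2 and *Rnf40ΔSC* replicate 3 was small. Means were 161 ± 12.1 and 202 ± 18.5 CPM (SD, n = 3), with a log2 fold change of 0.33 (SE 0.10). With scaling to total counts it was 0.59. Of its exons, 10.3% overlap the gene 1700019G06Rik on the other strand, and since the strand setting of the counting is not given in the sources used here, reads of both genes cannot be told apart there.

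*Plaur*, on chromosome 7 (chr7:25247519-25260892, mm9, plus strand), had 3, 10 and 5 reads in control and 3, 3 and 7 reads in *Rnf40ΔSC* replicates 1 to 3. The urokinase receptor transcript was thus scarce in all libraries, and the groups overlapped. The ratio of summed reads was 0.595 with a 95% interval from 0.268 to 1.28, so that no difference was detectable at this depth.

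Of the 7 genes 5 had enough reads for the fit. Calls were made with 3 limits (edgeR adjusted p at most 0.05, log2 fold change 0.8 or more in size, mean 20 normalised counts or more). With these limits 3.65% of all 11371 tested genes were higher (415) and 4.99% were lower (567). Without *Rnf40ΔSC* replicate 3 the counts over all genes were 469 higher and 697 lower. Under total-count scaling 1008 were higher and 261 lower, so that the split between directions turned.

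Levels of different genes were compared per kilobase of exon. In control nerves *Serpinf1* led with 147 ± 2.44 CPM per kilobase (SD, n = 3, as for all levels of this kind), followed by *Serpine2* with 71.2 ± 5.42, *Prss23* with 49.8 ± 3.75 and *Plat* with 34.9 ± 4.24 CPM per kilobase. *Plau* with 8.34 ± 1.17, *Plaur* with 2.47 ± 1.37 and *Serpini1* with 0.275 ± 0.291 CPM per kilobase came last. In *Rnf40ΔSC* nerves *Serpine2* led with 410 ± 70.5 CPM per kilobase, ahead of *Serpinf1* with 101 ± 10.9, *Prss23* with 62.6 ± 5.74, *Plat* with 33.3 ± 1.28, *Plau* with 8.23 ± 1.03, *Plaur* with 1.45 ± 0.583 and *Serpini1* with 0.431 ± 0.324. *Serpine2* and *Serpinf1* thus changed places and the order of the other 5 genes was kept. In neither genotype did the libraries of neighbours in this order overlap, although the values of *Plaur* and *Serpini1* rest on 11 reads or fewer per library. Scaling to total counts gave the same order in both genotypes.

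**Figure D2:**
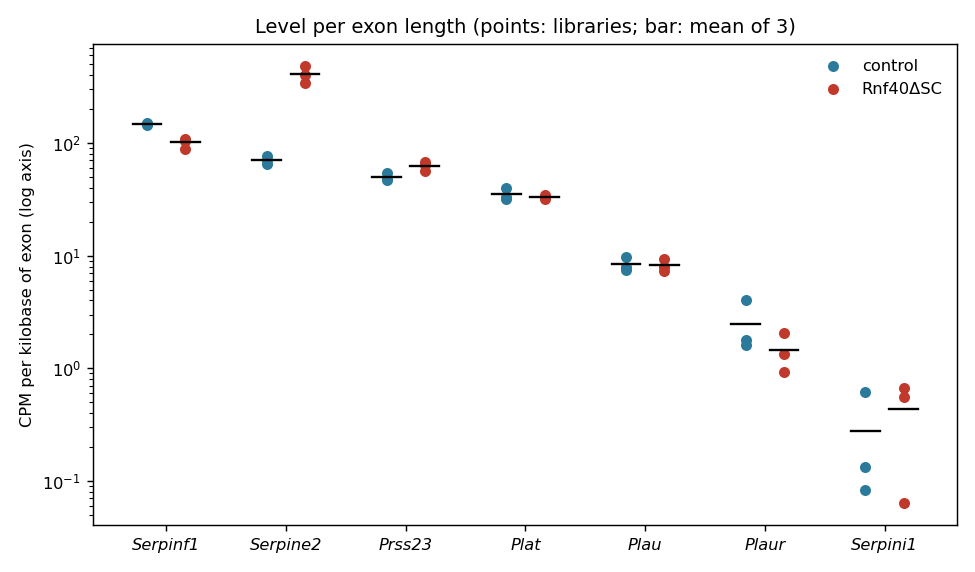
Level of the 7 genes in CPM per kilobase of exon (vertical axis, logarithmic), ordered by their control mean, with control libraries in blue, *Rnf40ΔSC* libraries in red and the mean of 3 libraries as a black bar. *Serpine2* stood second at 71.2 in control and first at 410 CPM per kilobase in *Rnf40ΔSC* nerves, and *Plat* had 34.9 and 33.3.

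The balance of inhibitor to activator transcripts followed from these levels. The level of *Serpine2* per kilobase was 1.51, 1.78 and 1.66 times the summed level of *Plat* and *Plau* in control replicates 1 to 3 and 9.55, 11.7 and 8.31 times that sum in *Rnf40ΔSC* replicates 1 to 3. The ratio was above 1 in all libraries and did not overlap between genotypes, with means of 1.65 ± 0.132 and 9.86 ± 1.72 (SD, n = 3). The summed level of both activators was 43.3 ± 3.75 and 41.6 ± 0.327 CPM per kilobase (SD, n = 3), so that the ratio differed through *Serpine2*. *Plat* exceeded *Plau* per kilobase by 5.38, 3.47 and 3.95 times in control and by 4.72, 4.17 and 3.42 times in *Rnf40ΔSC* libraries, with overlapping groups. Relative to *Serpinf1*, the level of *Serpine2* was 0.477, 0.529 and 0.442 in control and 3.66, 5.46 and 3.28 in *Rnf40ΔSC* libraries.

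Other genes were taken from lists by role, some of the plasminogen system and some of related roles. The latter were thrombin and its receptors, anticoagulant proteins, Kunitz inhibitors with their proteases, and candidate receptors of the *Serpinf1* product. Counts here are over all lists together. These held 53 genes beside the 7, of which 42 had a read, 11 had none and 27 were tested. Under the 3 limits 1 was higher and 5 were lower, beside 3.65% and 4.99% of all tested genes. The higher gene and 1 of the lower genes came from the Kunitz list. With the adjusted p alone 5 were higher, 8 were lower and 14 did not pass, beside 15.4% of all tested genes that were higher and 16.2% that were lower. Of the higher genes 1 came from the Kunitz list and 2 from the list of *Serpinf1* receptors. The median log2 fold change of the 27 genes was -0.09, beside -0.00255 for all tested genes.

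Plasminogen itself was nearly absent from nerve RNA. *Plg* had 1, 0 and 0 reads in control and 5, 2 and 1 reads in *Rnf40ΔSC* replicates 1 to 3, a ratio of 6.59 with a 95% interval from 0.883 to 292, and it was not tested. Transcripts of the 3 fibrin chains (*Fga*, *Fgb* and *Fgg*), of prothrombin (*F2*) and of factor VII (*F7*) had no read in any library. Liver is the known source of these plasma proteins, and protein that reaches the nerve by blood is not seen by RNA-Seq.

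Among receptors and surface cofactors of plasminogen activation, *Vtn*, which encodes the matrix and plasma protein vitronectin that binds the urokinase receptor, was lower. It had 79.9, 92.7 and 89.7 CPM in control and 42.9, 43.1 and 53.8 CPM in *Rnf40ΔSC* nerves. The groups were apart, with a log2 fold change of -0.91 (SE 0.14, edgeR adjusted p = 1.88e-06). With scaling to total counts it was -0.63 and no longer past the limit of fold change. *Anxa2* and *S100a10*, whose products form a complex that binds tissue-type plasminogen activator and plasminogen, had log2 fold changes of -0.03 (SE 0.09, adjusted p = 0.82) and -0.08 (SE 0.11, adjusted p = 0.661). Their levels were high, at 444 ± 14.6 and 434 ± 52.6 CPM for *Anxa2* (SD, n = 3), and both signs turned with total-count scaling, where *Anxa2* passed as higher (0.23, adjusted p = 0.0437). *Eno1* had no read in the tables, and why was not tested.

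The complexes of serpins with their proteases are cleared by LDL receptor family members. *Lrp1*, whose product takes up complexes of protease nexin-1, had 625, 661 and 702 CPM in control and 356, 291 and 444 CPM in *Rnf40ΔSC* nerves. All *Rnf40ΔSC* libraries were below the controls, and the gene was lower with a log2 fold change of -0.86 (SE 0.11, edgeR adjusted p = 4.71e-06). Without *Rnf40ΔSC* replicate 2 the value was -0.72, and with total-count scaling it was -0.59, both short of the limit of 0.8. *Serpine2* and *Lrp1* thus differed in opposite directions. Of the other 3 tested genes *Sort1* had -0.09, *Lrpap1*, which encodes the chaperone of these receptors, had -0.11 and *Vldlr* had -0.10, and no adjusted p of these was below 0.539.

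The following other inhibitors of plasminogen activators or plasmin were scarce in nerve RNA. *Serpinf2*, which encodes the plasmin inhibitor alpha2-antiplasmin, had 1 read in all 6 libraries together, and *Serpinb2*, *Serpina5* and *Cpb2* had none. *A2m*, which encodes the broad protease inhibitor alpha2-macroglobulin, had 14, 27 and 50 reads in control and 11, 10 and 17 reads in *Rnf40ΔSC* nerves. It was lower, with a log2 fold change of -1.49 (SE 0.32, edgeR adjusted p = 0.000355), and all *Rnf40ΔSC* levels were below the controls. With a mean of 21.0 normalised counts it was close to the limit of 20, and it fell below it without control replicate 2 (log2 fold change -1.56) or control replicate 3 (log2 fold change -1.17).

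Thrombin is the other main target of protease nexin-1. Its receptor gene *F2r* had a log2 fold change of -0.00 (SE 0.29, adjusted p = 0.994) at about 11.5 CPM in control and 11.7 CPM in *Rnf40ΔSC* nerves, and the tissue factor gene *F3* had -0.09 (SE 0.18, adjusted p = 0.747). *F13a1*, which encodes the transglutaminase subunit that crosslinks fibrin, passed the adjusted p but not the limit of fold change, at 84.6 ± 9.68 and 53.3 ± 6.68 CPM (SD, n = 3) and a log2 fold change of -0.67 (edgeR adjusted p = 0.000176). *F5*, which encodes the cofactor of factor Xa and was named after its values were seen, had 0, 1 and 1 reads in control and 23, 20 and 25 reads in *Rnf40ΔSC* replicates 1 to 3. It was almost undetected in control and present in all *Rnf40ΔSC* libraries, with a ratio of summed reads of 28.0 (95% interval 7.46 to 236). The edgeR adjusted p was 1.66e-07, but the mean of 10.5 normalised counts was under the limit of 20.

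Of 6 tested genes for anticoagulant proteins 3 were lower and 1 was higher at an edgeR adjusted p of 0.05, beside 16.2% of all tested genes that were lower and 15.4% that were higher. *Serpind1*, which encodes heparin cofactor II, a serpin that inhibits thrombin as protease nexin-1 does, had 48.6, 75.1 and 59.4 CPM in control and 5.58, 11.9 and 9.10 CPM in *Rnf40ΔSC* nerves. Every *Rnf40ΔSC* library was far below every control library, and the log2 fold change was -2.84 (SE 0.23, edgeR adjusted p = 9.01e-13), so that these 2 thrombin-inhibiting serpins differed in opposite directions. *Thbd*, which encodes thrombomodulin and is typical of endothelium, was lower at the adjusted p alone with -0.51 (edgeR adjusted p = 0.000543), but with total-count scaling it had -0.24 and did not pass (adjusted p = 0.0863). The protein S gene *Pros1* had -0.41 (edgeR adjusted p = 0.0203) and did not pass with total-count scaling (-0.14, adjusted p = 0.454), in DESeq2 (adjusted p = 0.0921) or without control replicate 1, control replicate 3 or *Rnf40ΔSC* replicate 1. The endothelial marker sum had a ratio of 0.707, and its part in *Thbd* was not tested. *Tfpi2*, also named after its values were seen, had 5, 6 and 8 reads in control and 24, 8 and 22 reads in *Rnf40ΔSC* nerves and passed the adjusted p alone as higher (1.19, edgeR adjusted p = 0.0245), but not in DESeq2 (adjusted p = 0.125) or without control replicate 2 or 3 or *Rnf40ΔSC* replicate 1 or 3.

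Of the Kunitz inhibitors and their proteases, *Spint1*, which encodes an inhibitor of hepatocyte growth factor activator and matriptase, was the 1 gene of the lists by role that was higher under the 3 limits. It had 29.6, 32.8 and 34.8 CPM in control and 64.8, 76.9 and 65.4 CPM in *Rnf40ΔSC* nerves. The groups were well apart, with a log2 fold change of 1.07 (SE 0.15, edgeR adjusted p = 7.79e-07). *Spint2* had few reads and a log2 fold change of 0.76 (SE 0.38, adjusted p = 0.127), which passed with total-count scaling (1.03, adjusted p = 0.0282). The proprotein convertase gene *Pcsk6* was lower, with 110, 196 and 224 reads in control and 69, 48 and 73 reads in *Rnf40ΔSC* nerves. Its means were 100.4 ± 10.1 and 29.9 ± 0.295 CPM (SD, n = 3), with a log2 fold change of -1.75 (SE 0.14, edgeR adjusted p = 1.14e-12). The CPM of its *Rnf40ΔSC* libraries was nearly identical. The related convertase gene *Furin* had 0.02 (SE 0.11, adjusted p = 0.931) and passed as higher with total-count scaling (0.29, adjusted p = 0.0384). The membrane proteases *St14*, *Hpn*, *Prss8* and *Prss22* had at most 4 reads in any library, and *Tmprss2* had none.

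Of 4 tested genes for candidate receptors of the *Serpinf1* product 2 passed the adjusted p as higher, beside 15.4% of all tested genes. *Lrp6* had 190 ± 19.4 and 238 ± 8.86 CPM (SD, n = 3) and a log2 fold change of 0.32 (edgeR adjusted p = 0.00942), and *Plxdc2*, named after its values were seen, had 0.34 (edgeR adjusted p = 0.0101). Neither reached the limit of fold change, and *Lrp6* did not pass without control replicate 3 (0.26, adjusted p = 0.112), nor *Plxdc2* without control replicate 1 (0.27, adjusted p = 0.075). *Pnpla2*, a lipase gene that adipocytes express strongly, had 233, 344 and 791 reads in control and 424, 222 and 399 reads in *Rnf40ΔSC* nerves. Control replicate 3 stood out, as it did for the adipocyte markers, and the log2 fold change was -0.62 (SE 0.31, adjusted p = 0.232) with it and -0.25 (adjusted p = 0.151) without it. *Rpsa* had 9 reads or fewer per library, and whether these counts reflect its level was not tested.

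**Figure D3:**
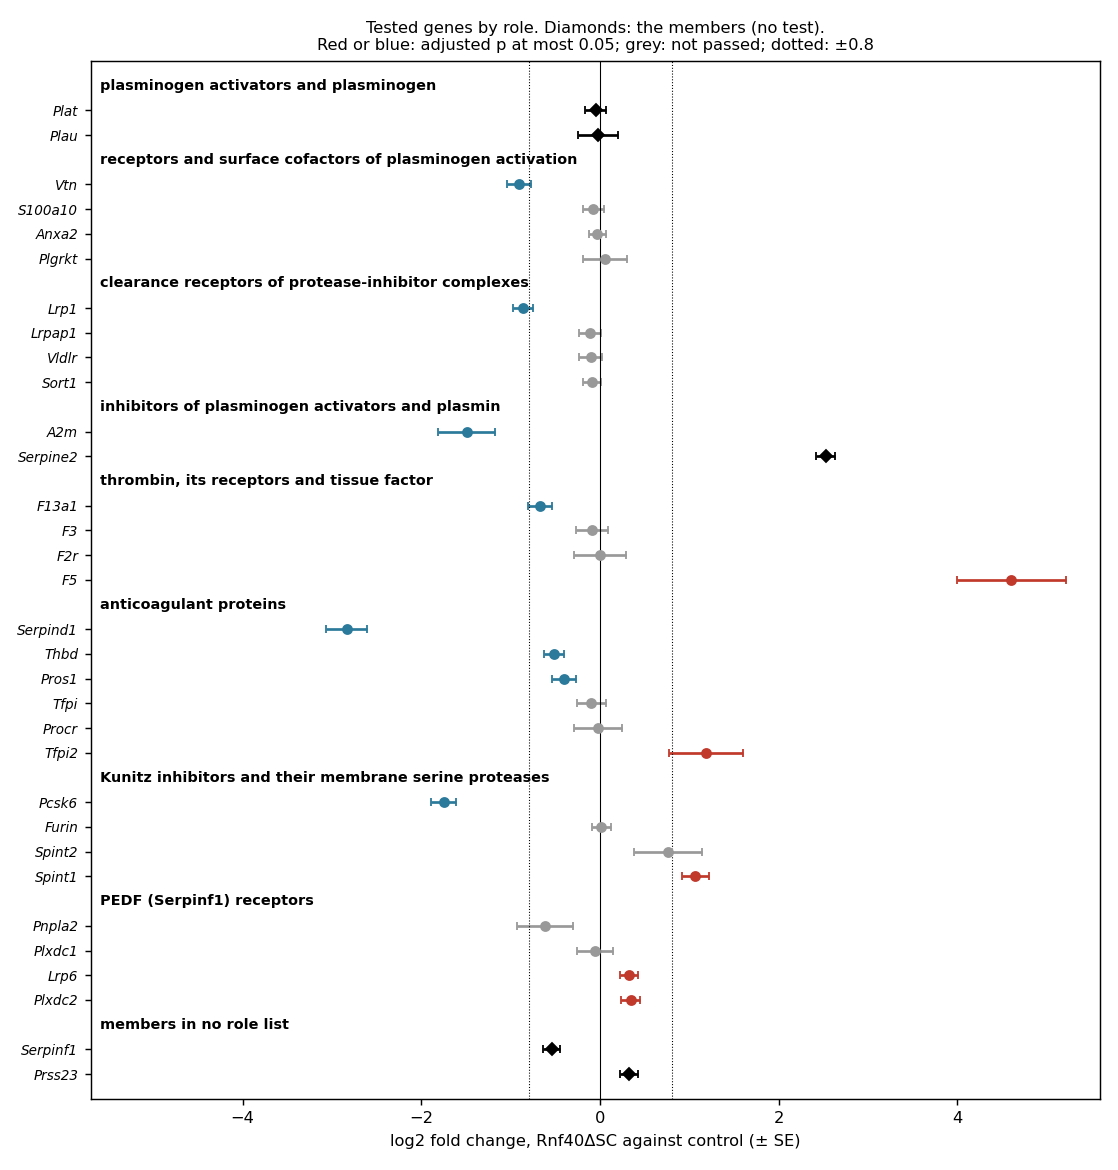
Log2 fold change of *Rnf40ΔSC* against control (horizontal axis, bars are SE) for the tested genes of each role, with dotted lines at -0.8 and 0.8. Black diamonds are the genes of the set, shown without a test, red and blue points passed an edgeR adjusted p of 0.05 as higher or lower, and grey points did not. *Serpine2* stands at 2.53 beside *A2m* at -1.49 among the inhibitors, *Serpind1* lies furthest to the lower side at -2.84, and the 4.60 of *F5* is a fitted value that depends on the prior count, since control had 2 reads.

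The other genes of the serpin family were looked at in the same way. Of 63 serpin genes 26 had a read. Of the 60 serpins other than *Serpine2*, *Serpinf1* and *Serpini1*, 37 had no read and 9 were tested in edgeR, and 0 were higher and 3 were lower (*Serpind1*, *Serpinb6a* and *Serpinb6b*) under the 3 limits, beside 3.65% and 4.99% of all tested genes. Unadjusted p-values below 0.05 were likewise found for 0 higher serpins, and DESeq2 called 0 higher. With the adjusted p alone 5 were lower, of which *Serpinh1* barely passed, and 4 did not pass, beside 16.2% of all tested genes that were lower. The median log2 fold change of the 9 was -0.63.

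The most abundant serpin transcripts beside *Serpine2* were those of *Serping1*, the complement C1 inhibitor, and *Serpinh1*, a collagen chaperone. *Serping1* had 355 CPM per kilobase in control and 229 in *Rnf40ΔSC* nerves, with a log2 fold change of -0.63 (SE 0.09, edgeR adjusted p = 3.64e-07). *Serpinh1* had 295 and 250 CPM per kilobase and a log2 fold change of -0.24 (SE 0.10, edgeR adjusted p = 0.0493), with overlapping libraries and a sign that turned to 0.03 with total-count scaling. It did not pass with RLE scaling (adjusted p = 0.0565), the stricter filter (adjusted p = 0.0533) or DESeq2 (adjusted p = 0.107), and with a library left out it passed only without *Rnf40ΔSC* replicate 2. Per kilobase *Serpine2* was below both in control and above both in *Rnf40ΔSC* nerves. The intracellular serpins *Serpinb6a* and *Serpinb6b* had log2 fold changes of -0.88 (SE 0.13, edgeR adjusted p = 9.69e-07) and -1.75 (SE 0.26, edgeR adjusted p = 1.37e-06). For *Serpinb6a* the value was -0.80 and just short of the limit without control replicate 1, and -0.61 with total-count scaling. Both values are uncertain, since genes of this cluster are known to be similar in sequence and *Serpinb6a* shares exon positions with *Nqo2* on the other strand over 14.1% of its exons. *Serpinb9* had 0.06 (SE 0.27, adjusted p = 0.891).

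**Figure D4:**
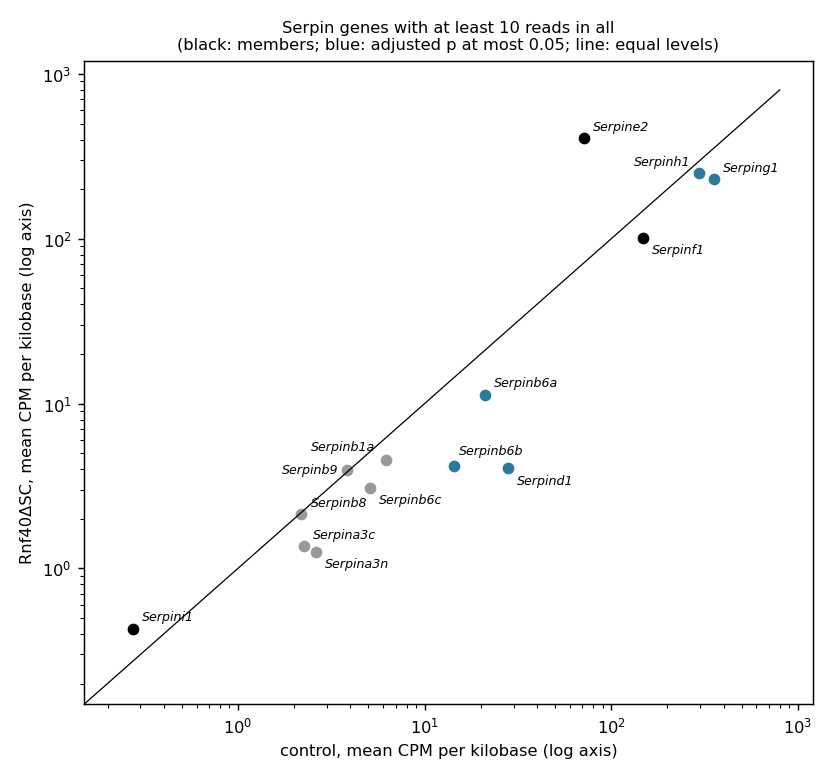
Mean level per kilobase of exon in control (horizontal axis) and in *Rnf40ΔSC* nerves (vertical axis), both in CPM per kilobase on logarithmic axes, for 14 serpin genes with a known exon length and at least 10 reads over all libraries. Points above the line were higher in *Rnf40ΔSC* nerves, black points are genes of the set, blue points passed an edgeR adjusted p of 0.05 as lower and grey points did not pass or were not tested. *Serpine2* lies far above the line, from 71.2 to 410, and *Serpind1* furthest below it.

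The family of *Prss23* is made of trypsin-like serine proteases and was mostly silent. Of 37 genes with a *Prss* symbol other than *Prss23*, 14 had a read and 3 were tested. In edgeR 0 were higher and 0 were lower under the 3 limits, beside 3.65% and 4.99% of all tested genes. With 3 tested genes such counts cannot be told apart from these shares. Of the 3 genes 0 had an unadjusted p below 0.05, and DESeq2 called 0 in either direction. *Prss12*, which encodes neurotrypsin, had 132 ± 4.95 and 152 ± 15.2 CPM (SD, n = 3) and a log2 fold change of 0.19 (SE 0.10, adjusted p = 0.159), and it passed as higher with total-count scaling (0.46, adjusted p = 0.00068). *Prss35* had -0.01 (SE 0.22, adjusted p = 0.988) and *Prss36* had 0.23 (SE 0.37, adjusted p = 0.683).

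The genes most like *Serpine2* across libraries were sought by the Pearson correlation of log2 CPM over the 6 libraries among 9251 other genes with a mean of at least 20 normalised counts. The first 5 were *Ezr* (r = 0.999), *Tmem47* (r = 0.999), *Elmo1* (r = 0.998), *Car10* (r = 0.998) and *Pou3f2* (r = 0.997). *Ezr* encodes ezrin, a linker of membrane and actin, *Elmo1* a regulator of Rac and *Pou3f2* a POU domain transcription factor. As a description of these points, which share a genotype in groups of 3, 968 genes (10.5%) had r above 0.9. The log2 fold changes of the 5 genes were between 1.42 for *Ezr* and 1.82 for *Pou3f2*, in a direction that the choice by likeness to *Serpine2* fixes. Ranked by deviations from the genotype means, the first 5 were other genes (*Farsb*, *Asb1*, *Nr2f1*, *Gng10* and *Ccdc90b*).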

How the data were processed

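RNA-Seq of whole mouse sciatic nerve was analysed in 3 control and 3 *Rnf40ΔSC* libraries, grouped by their labels. Per the methods, the authors aligned reads to mm9 with TopHat and assigned unique reads to genes with HTSeq, and they deposited raw counts per gene. The submitters' processing notes name Bowtie2 and mm10 as well. The annotation and strand setting of the counting are not given in the sources used here, and methods and labels name different library kits. All entries of the tables name a gene. Totals of 1317167 to 2468765 counts limit precision for genes with few reads.

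Counts were fitted in R 4.3.3 with edgeR 4.0.16 (filterByExpr, TMM, robust quasi-likelihood test, genotype only, Benjamini-Hochberg over 11371 genes). The SE was derived from the F statistic. Genes were called at an adjusted p at most 0.05, absolute log2 fold change at least 0.8 and base mean at least 20. The fit was tested on simulated data. The study had used DESeq2, here an alternative (version 1.42.0). Replicates of a group differed by more than sampling noise. Levels per kilobase use the exon union of GENCODE vM1 (mm9), where 20763 symbols occur once, and correlations a prior count of 2. Alternatives were RLE and total-count scaling, no filter, at least 10 counts in every library, a replicate block, each library left out, and the adjusted p alone. The 7 genes and the lists were chosen with earlier results of these data known. Other named genes were those called, the 2 of each role list and the 3 of each family with the highest base mean among those not called, the 5 most like *Serpine2*, and markers. Some further genes of the lists were named outside this rule, with their values known. A few genes of the lists are not reported here.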

Additional observations from a re-analysis of the deposited data

How the results depend on the processing

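The direction of *Serpine2* (higher), *Serpinf1* (lower) and *Prss23* (higher) held under RLE scaling, total-count scaling, DESeq2, no filter, the stricter filter, the replicate block and every left-out library. Leaving out a library gave log2 fold changes of 2.39 to 2.65 for *Serpine2*, -0.59 to -0.46 for *Serpinf1*, -0.13 to 0.03 for *Plat*, -0.13 to 0.09 for *Plau* and 0.27 to 0.41 for *Prss23*. Scaling to total counts gave a median of 0.267 over all tested genes (-0.00255 in the main fit), 2.79 for *Serpine2*, -0.27 for *Serpinf1*, 0.22 for *Plat*, 0.25 for *Plau* and 0.59 for *Prss23*. It changed the calls over all genes from 415 higher and 567 lower to 1008 higher and 261 lower, and left 3 lower genes in the role lists. With this shift, signs turned for *Anxa2* (0.23), *S100a10* (0.19), *Sort1* (0.18), *Lrpap1* (0.16), *F3* (0.18), *Serpinh1* (0.0252) and *Prss35* (0.26). The adjusted p alone gave 5 higher and 8 lower genes in the role lists and 5 lower serpins. *Prss35* also turned without a filter (0.00237) and with the stricter one (0.0133). Signs near 0 turned with a library left out for *Anxa2* (-0.0883 to 0.0750), *S100a10* (-0.20 to 0.0836), *Sort1* (-0.19 to 0.00314), *F3* (-0.27 to 0.0574), *Furin* (-0.0325 to 0.0968), *Serpinb9* (-0.0781 to 0.18) and *Prss35* (-0.12 to 0.0895).

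With the replicate block 408 genes were higher and 566 lower. Deviations of same-numbered libraries correlated with r = -0.0948, -0.0150 and -0.0621, so no pairing by number was seen in these values. Whether the samples were paired in the experiment cannot be told from such correlations. Depth left *Plaur*, *Serpini1* and *Plg* untested.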
